A study of Mus musculus with 16 samples.

Results

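The transcripts of 8 mitogen-activated protein (MAP) kinases and of Mapkapk5, a kinase activated by them, were followed through the mammary RNA libraries of the series. The 9 genes, of 24187 rows in the table, were taken by symbol: Mapk3, Mapk4, Mapk6, Mapk7, Mapk8, Mapk9, Mapk13, Mapk14 and Mapkapk5. Mapk4 was put among them because its level had already been seen to differ between mutant and wild-type libraries. That comparison is therefore given as a description of these 9 genes. Counts of them past a threshold only place them among all genes and are not used as support. All 9 had a mean of at least 1 FPKM (read fragments scaled to transcript length and library size) over the libraries.

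The libraries came from whole mammary gland of C57BL/6 mice at day 13 of pregnancy, 4 from wild-type mice and 3 from Socs2-Δs mice, which carry a CRISPR/Cas9 edit. The labels name no treatment in either group, with age, number of founders and edited sequence not given in the sources used here. Wild-type mice were bought from a vendor, so source and genotype cannot be told apart. The labels do not tie replicates to separate animals, and the spread between them may be partly technical.

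MAP kinases are the last step of a relay in which a MAP3K phosphorylates a MAP2K, which phosphorylates the MAP kinase, which phosphorylates transcription factors and further kinases. The classical families are the extracellular signal-regulated kinases (ERK), the JUN N-terminal kinases (JNK) and the p38 kinases, and each is switched on by a MAP2K at a threonine and a tyrosine of its activation loop. The atypical ERK4 and ERK3, encoded by Mapk4 and Mapk6, have a single serine at that place, are phosphorylated there by group I p21-activated kinases (PAK), and bind and activate MK5, the product of Mapkapk5. In the mammary gland, growth factor signals through ERK are known for duct growth and branching. Mapk4 and Mapk6 share older names in RefSeq, so the rows were identified by Entrez ID, 225724 for Mapk4 and 50772 for Mapk6.

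Depth was alike in both groups, at 21.3 to 24.5 M (mega) reads per library, recovered from the steps between FPKM values. Wild-type replicates 3 and 4 departed from the rest in RNA of other tissues. The summed FPKM of 6 liver markers was 201 and 1937 in them and 6.69 to 10.3 in the other 5 libraries, and that of 5 salivary gland markers was 324 and 213 against 28.7 to 83.7. Mutant replicate 2 and wild-type replicate 4 held more lymphocyte RNA, with summed marker FPKM of 123 and 175 against 2.63 to 5.77 in the other 5 libraries. Differences are given against all 4 wild-type libraries and, for the 9 genes and most pathway genes named, also against wild-type replicates 1 and 2. In the 3 mutant samples the genotype tag says wild type although titles say Mut, and the grouping follows the titles. Socs2 itself ran from 16.1 to 25.6 FPKM in wild type and from 13.9 to 17.1 FPKM in mutant libraries, so the ranges overlapped and its level did not check the labels.

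The reference table held promoter windows, from 250 bases before to 50 bases after a transcription start, for 7 of the 9 genes (RefSeq, build GRCm38.p6). Mapk3 and Mapk4 were not among them. The series concerns STAT5, so the windows were searched for the STAT recognition sequence TTCNNNGAA, a pattern that reads the same on both strands. It was found in 1 of the 11 windows of these genes, as against 8.3% of all 32851 windows in the table. The match lies 232 bases before the downstream of the Mapk14 starts, and it is shown because it is the only match among the 11 windows. The stretch around it, chr17:28692321-28692380 on the + strand of GRCm38.p6, is printed with the match in capitals.
Mapk14: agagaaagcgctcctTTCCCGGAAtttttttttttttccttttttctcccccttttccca
The level of Mapk14, given with the p38 kinases, was nearly the same in both groups. GC content exceeded 60% in 9 of the 11 windows, as against 28.6% of all windows, and the exceptions were the second windows of Mapk8 and Mapk14.

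Mapk4, the atypical kinase ERK4, was the one gene of the 9 whose mutant and wild-type libraries did not overlap. It measured 1.60, 1.13, 1.5 and 0.276 FPKM in wild-type replicates 1 to 4, and 8.27, 7.35 and 7.04 FPKM in mutant replicates 1 to 3. All 3 mutant libraries lay above every wild-type library, and wild-type replicate 4 was the lowest. The means were 1.12 ± 0.601 FPKM (SD, n = 4) and 7.56 ± 0.641 FPKM (SD, n = 3), and the mutant mean was 6.72 times the wild-type mean. The mutant libraries were higher by 2.06 in log2(FPKM + 1), a scale that understates the change of a low gene (SE 0.26). Against wild-type replicates 1 and 2 they were higher by 1.86 (SE 0.14).

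The reads behind these values set the counting error of Mapk4. The recovered reads were 188, 125, 147 and 26 in wild-type replicates 1 to 4 and 894, 788 and 702 in mutant replicates 1 to 3. The exact 95% Poisson interval for wild-type replicate 4 ran from 0.181 to 0.405 FPKM, and that for wild-type replicate 1, the highest of its group, from 1.38 to 1.84 FPKM. For mutant replicate 3, the lowest of its group, it ran from 6.53 to 7.58 FPKM. These intervals cover counting error only. The interval of wild-type replicate 4 lay below those of the other wild-type libraries.

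Among all 13392 genes tested with 7 libraries, 6 passed, or 0.0448% (limma, Benjamini-Hochberg adjusted p under 0.05), and 0 of the 9 genes was among them. At an unadjusted p under 0.05, which 18.1% of all genes met, 1 of the 9 stood, and this was Mapk4. Groups without overlap occurred in 22.5% of all genes and in 1 of the 9. Against wild-type replicates 1 and 2, 2.14% of 13276 genes passed, 1.42% in the upward direction, and 1 of the 9 did, again Mapk4, upward. With wild-type replicates 3 and 4 kept and given their own term, 0 of the 9 passed, and Mapk4 differed by 1.86 (SE 0.28). Against wild-type replicates 1 and 2 alone, the groups did not overlap in 40.2% of all genes and in 1 of the 9. Since Mapk4 was chosen on this comparison, these counts place it in the table and support nothing further.

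**Figure D1:**
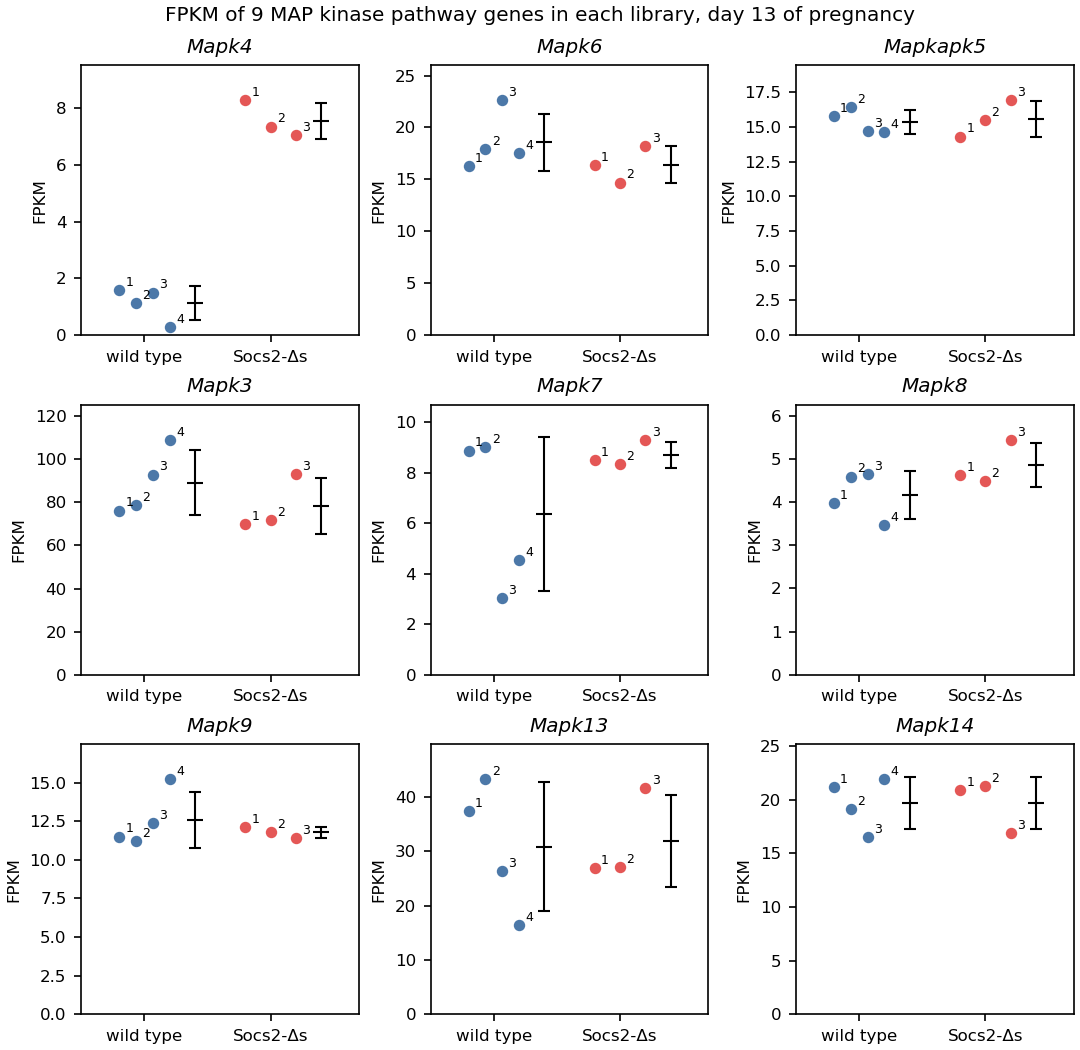
FPKM (vertical axis, linear, from 0) of 9 genes in the 4 wild-type and 3 Socs2-Δs libraries; each point is a library with its replicate number, and the bar is the mean ± SD. Mapk4 sits at 0.276 to 1.60 FPKM in wild type and at 7.04 to 8.27 in Socs2-Δs libraries, whereas the other 8 genes overlap between groups.

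Mapk6, the atypical kinase ERK3 and the closest relative of Mapk4, did not share this pattern. It measured 16.3, 17.9, 22.6 and 17.5 FPKM in wild-type replicates 1 to 4 and 16.4, 14.7 and 18.2 FPKM in mutant replicates 1 to 3. The groups overlapped, with wild-type replicate 3 highest and mutant replicate 2 lowest. The log2 difference was -0.16 (SE 0.16), and -0.06 (SE 0.12) against wild-type replicates 1 and 2.

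The balance of both atypical kinases was therefore compared within each library, where the scaling of a library cancels. Mapk6 exceeded Mapk4 by 10.2, 15.9, 15.1 and 63.2 times in wild-type replicates 1 to 4 and by 1.99, 2.0 and 2.58 times in the mutant libraries. As a share of the FPKM of both genes, Mapk4 made up 5.65% ± 3.05 (SD, n = 4) in wild type and 31.6% ± 3.15 (SD, n = 3) in mutant libraries. The highest wild-type share was 8.92%, and the lowest mutant share was 28.0%. On the log2 scale with 1 FPKM added to each gene, the ratio of Mapk4 to Mapk6 was higher in the mutant libraries by 2.22, and by 1.92 against wild-type replicates 1 and 2. The inclusion of Mapk4 for its own difference fixes the direction of this ratio.

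Mapkapk5, which encodes the kinase MK5 that both atypical ERKs bind, was nearly constant. It ran from 14.6 to 16.4 FPKM in wild type and from 14.3 to 16.9 FPKM in mutant libraries, with a log2 difference of 0.02 (SE 0.14), and -0.05 (SE 0.11) against wild-type replicates 1 and 2. For each FPKM of Mapkapk5 there was 0.0726 ± 0.0390 FPKM of Mapk4 (SD, n = 4) in wild type and 0.490 ± 0.0835 FPKM (SD, n = 3) in mutant libraries. The same quotient for Mapk6 was 1.21 ± 0.225 and 1.06 ± 0.105, and its groups overlapped. Mapk6 thus stood close to Mapkapk5 in level in both groups, whereas Mapk4 was below Mapkapk5 in every library.

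The classical ERK gene of the list, Mapk3 (ERK1), was the most abundant of the 9. It measured 76.2, 78.7, 92.9 and 109 FPKM in wild-type replicates 1 to 4 and 69.9, 71.9 and 93.2 FPKM in mutant replicates 1 to 3. Wild-type replicate 4 was highest and mutant replicate 1 lowest, and the ranges overlapped. The log2 difference of -0.18 (SE 0.20) became 0.00 (SE 0.16) against wild-type replicates 1 and 2, since wild-type replicates 3 and 4 were the highest of their group.

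Mapk7 encodes ERK5, a large ERK with its own activator, MAP2K5. Wild-type replicates 1 to 4 gave 8.88, 9.03, 3.05 and 4.54 FPKM, and the mutant libraries gave 8.49, 8.36 and 9.30 FPKM. Only wild-type replicates 3 and 4 were low, and the other 5 libraries lay within 8.36 to 9.30 FPKM. The log2 difference with all libraries was 0.50 (SE 0.33), the largest of the 8 genes without Mapk4, and it was -0.04 (SE 0.10) against wild-type replicates 1 and 2. The difference of Mapk7 thus rested on wild-type replicates 3 and 4. These also held the most liver and salivary gland RNA, whose part in the result was not tested.

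The JNK genes Mapk8 (JNK1) and Mapk9 (JNK2), whose products phosphorylate JUN in response to stress and cytokines, overlapped between groups. Mapk8 measured 3.98, 4.59, 4.64 and 3.47 FPKM in wild-type replicates 1 to 4 and 4.63, 4.49 and 5.44 FPKM in the mutant libraries, with a log2 difference of 0.18 (SE 0.15). Mapk9 measured 11.5, 11.2, 12.4 and 15.2 FPKM in wild-type replicates 1 to 4 and 12.1, 11.8 and 11.4 FPKM in the mutant libraries, with a log2 difference of -0.08 (SE 0.15). The differences against wild-type replicates 1 and 2 were 0.15 (SE 0.13) for Mapk8 and 0.05 (SE 0.09) for Mapk9. Wild-type replicate 4 held both the lowest Mapk8 and the highest Mapk9. Mapk9 exceeded Mapk8 by 2.44 to 4.38 times in wild type and by 2.10 to 2.63 times in mutant libraries, so Mapk9 was the more abundant JNK gene in every library.

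The p38 genes Mapk14 (p38 alpha) and Mapk13 (p38 delta) are separated by a single pseudogene in the gene order of GRCm38.p6. Mapk14 measured 21.2, 19.1, 16.5 and 21.9 FPKM in wild-type replicates 1 to 4 and 20.9, 21.3 and 16.9 FPKM in the mutant libraries, a log2 difference of 0.00 (SE 0.16), and -0.04 (SE 0.14) against wild-type replicates 1 and 2. Mapk13 measured 37.4, 43.2, 26.4 and 16.4 FPKM in wild-type replicates 1 to 4 and 26.9, 27.0 and 41.6 FPKM in the mutant libraries. Its groups overlapped, and its values varied more within each group than those of Mapk14. The log2 difference of Mapk13 was 0.10 (SE 0.34) with all libraries and -0.36 (SE 0.22) against wild-type replicates 1 and 2, so its sign depended on wild-type replicates 3 and 4. The quotient of Mapk13 over Mapk14 ran from 0.747 to 2.26 in wild type and from 1.27 to 2.46 in mutant libraries.

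Without Mapk4, the log2 differences of the other 8 genes ran from -0.18 to 0.50, with a median of 0.01. The median over all 13392 genes tested was -0.004. In 6 of the 8 the difference was smaller than its own SE, and Mapk7 and Mapk8 were the exceptions. Against wild-type replicates 1 and 2 the 8 differences ran from -0.36 to 0.15. The summed FPKM of the 8 kinase genes, without Mapkapk5, was 182 ± 4.91 (SD, n = 4) in wild type and 179 ± 20.7 (SD, n = 3) in mutant libraries.

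**Figure D2:**
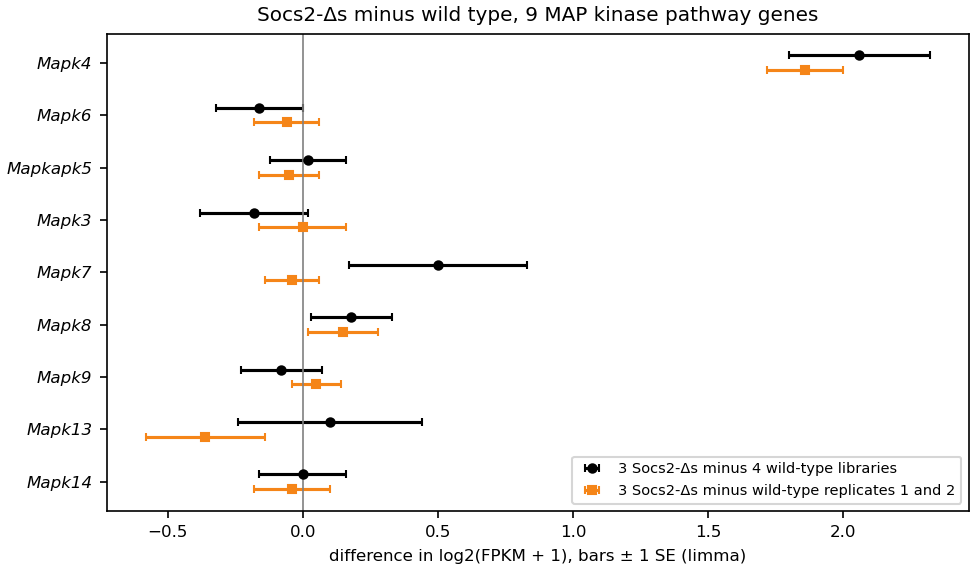
Difference in log2(FPKM + 1) (horizontal axis), Socs2-Δs minus wild type, for 9 genes, with bars of ± 1 SE from limma; circles use 4 wild-type libraries and squares wild-type replicates 1 and 2. Mapk4 lies at 2.06 and 1.86, and Mapk7 moves from 0.50 to -0.04.

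The order of levels, which FPKM allows because it is per length, was the same in both groups except for Mapk4 and Mapk8. In wild type the means fell from Mapk3 (89.2 FPKM) through Mapk13 (30.8), Mapk14 (19.7), Mapk6 (18.6), Mapkapk5 (15.4), Mapk9 (12.6), Mapk7 (6.37) and Mapk8 (4.17) to Mapk4 (1.12). The ranges of neighbours in this order overlapped except between Mapk3 and Mapk13, between Mapk9 and Mapk7, and between Mapk8 and Mapk4. In mutant libraries the first 7 places were the same, and Mapk4 (7.56 FPKM) stood above Mapk8 (4.85), with no overlap of their ranges. There the only neighbours with overlapping ranges were Mapk14 with Mapk6 and Mapk6 with Mapkapk5.

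Whole gland holds several cell types, and in bulk RNA a change in the number of cells of a type cannot be told apart from a change of RNA per cell. The summed FPKM of 7 alveolar markers (caseins, Wap, Lalba, Elf5 and Xdh) was 3127 to 29910 in wild type and 49765 to 64416 in mutant libraries, and all 7 had the higher mean in mutant libraries. That of 7 pan-luminal epithelial markers was 742 to 1665 and 1328 to 2013, with overlap, and all 7 had the higher mean in mutant libraries. Adipocyte markers summed to 8097 to 18587 and 2806 to 4547, with 7 of 7 lower in the mutant mean, and fibroblast markers to 1565 to 2334 and 962 to 1329, with 6 of 6 lower. Macrophage markers summed to 86.0 to 135 and 54.5 to 75.0, with 5 of 5 lower. Basal (482 to 943 and 813 to 995), endothelial (74.5 to 104 and 73.3 to 91.4), nerve (75.6 to 192 and 142 to 163), muscle (38.3 to 689 and 39.7 to 137) and lymphocyte sums (2.63 to 175 and 3.26 to 123) overlapped. Liver sums (8.66 to 1937 and 6.69 to 10.3) overlapped too. Salivary gland sums (64.8 to 324 and 28.7 to 36.8) did not, with 5 of 5 markers lower in the mutant mean. Wild-type replicates 1 and 2, at 83.7 and 64.8, also lay above the mutant libraries in this sum.

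Mapk4 was set against these sums within each library. Per 1000 FPKM of pan-luminal markers there was 1.41, 0.831, 0.899 and 0.373 FPKM of Mapk4 in wild-type replicates 1 to 4 and 5.38, 5.53 and 3.50 in the mutant libraries. The groups did not overlap, and the mutant mean was 5.47 times the wild-type mean. Mapk4 was included for its own difference, and the pan-luminal sum had a mutant mean only 1.33 times the wild-type mean. The gap in this quotient therefore follows from the choice of Mapk4 and adds no support. Per 1000 FPKM of alveolar markers there was 0.186, 0.0860, 0.050 and 0.0884 FPKM of Mapk4 in wild-type replicates 1 to 4 and 0.166, 0.123 and 0.109 in the mutant libraries, and these overlapped, with the mutant mean 1.29 times the wild-type mean. The alveolar sum itself had a mutant mean 4.24 times the wild-type mean. The part of these markers in the Mapk4 result was not tested. For Mapk6 the values per 1000 FPKM of pan-luminal markers were 13.2 to 23.6 in wild type and 9.02 to 11.1 in mutant libraries, without overlap. Mapk6 itself overlapped between groups, and the mean of the pan-luminal sum was 1224 in wild type and 1626 in mutant libraries. The cell type that holds the Mapk6 RNA was not tested.

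**Figure D3:**
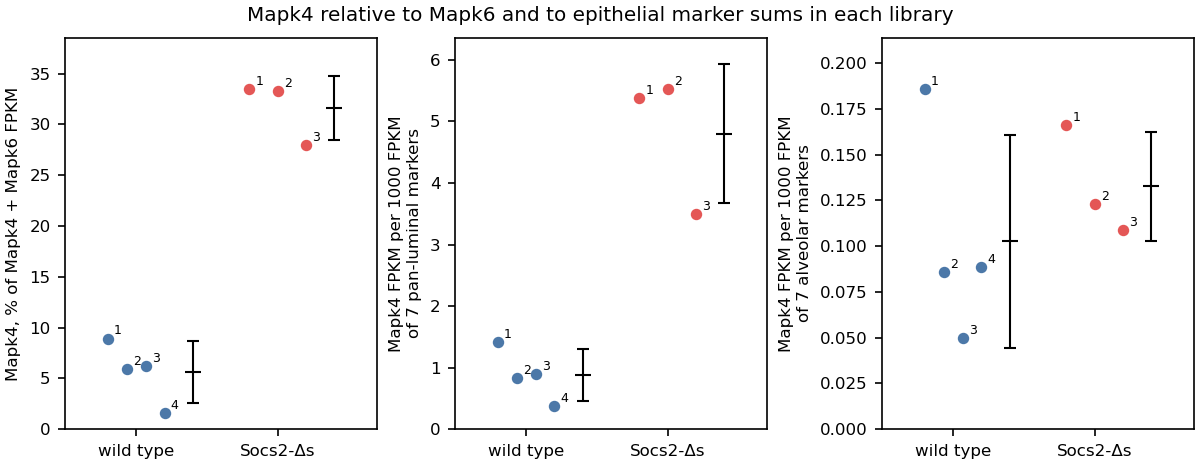
Mapk4 in each library as a percentage of Mapk4 plus Mapk6 FPKM (left), per 1000 FPKM of 7 pan-luminal markers (middle) and per 1000 FPKM of 7 alveolar markers (right); points are libraries with replicate numbers, bars are mean ± SD. The groups are apart in the left and middle panels, at 1.56 to 8.92% against 28.0 to 33.5% in the left one, and overlap in the right panel. Mapk4 was included for its own difference between the groups.

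The genes whose pattern over the 7 libraries was most like that of Mapk4 were taken by Pearson correlation of log2(FPKM + 1). They were Nbr1, an autophagy receptor (r = 0.996), Osbpl2, an oxysterol-binding protein (0.995), Fam20c, a kinase of secreted proteins including caseins (0.993), Dusp4, a MAP kinase phosphatase (0.992), and Slc15a2, a peptide transporter (0.992). Fam20c, for example, ran from 8.40 to 19.7 FPKM in wild type and from 59.4 to 72.0 FPKM in mutant libraries. These correlations are descriptions, since the gap between the groups supplies most of each. The genes most like Mapk6 were Hebp2 (0.973), Naa20 (0.970), Pdap1 (0.969), Dstn (0.966) and Reep1 (0.966), and each was highest in wild-type replicate 3. Between Mapk4 and the other 8 genes r ran from -0.587 for Mapk3 to 0.697 for Mapk8.

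The other genes of the MAP kinase pathway were examined by role in 9 lists of 102 genes found in the table, 91 of which were tested. With 7 libraries 0 of the 91 passed (limma, adjusted p under 0.05), as against 0.0448% of all genes. An unadjusted p under 0.05 was reached by 9 of 91 (7 with a positive and 2 with a negative difference), as against 18.1% of all genes. The median log2 difference was -0.02, and the groups did not overlap in 14 of the 91, as against 22.5% of all genes. Against wild-type replicates 1 and 2, 2 of the 91 passed upward and 0 downward. Of all genes, 2.14% passed in either direction and 1.42% upward, so these 2 calls do not set the pathway genes apart. Both called genes were phosphatases, Dusp4 and Dusp7.

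The phosphatases of the DUSP family remove phosphate from MAP kinases and are themselves induced by ERK signalling in many cells. The list of phosphatases held DUSP genes and also Ppm1a, Ppm1b and Ppm1d, which are not of that family. Of its 13 genes tested, 3 had an unadjusted p under 0.05, all with positive differences, as against 18.1% of all genes. The median log2 difference was -0.02, and 0.05 against wild-type replicates 1 and 2. Dusp4, a nuclear phosphatase, measured 18.1, 14.3, 14.5 and 9.09 FPKM in wild-type replicates 1 to 4 and 41.6, 42.0 and 34.8 FPKM in the mutant libraries. Every mutant library lay above every wild-type library, and the log2 difference of 1.46 (SE 0.23) did not pass (limma adjusted p = 0.0850). Dusp7, a cytoplasmic phosphatase with a preference for ERK, measured 10.2, 11.2, 8.49 and 7.74 FPKM in wild-type replicates 1 to 4 and 20.2, 20.8 and 23.2 FPKM in the mutant libraries. Its groups did not overlap, and the difference of 1.11 (SE 0.16) did not pass (limma adjusted p = 0.0847). Against wild-type replicates 1 and 2 both rose, Dusp4 by 1.24 (adjusted p = 0.0278) and Dusp7 by 0.93 (adjusted p = 0.0277), in a limma fit of 5 libraries. When wild-type replicates 3 and 4 were kept and given their own term, neither passed. Dusp5, a nuclear phosphatase of ERK, differed by 0.50 (limma adjusted p = 0.274), and by 0.22 against wild-type replicates 1 and 2. Other phosphatases, named after their values were seen, had negative differences that did not pass. Dusp10, a phosphatase of JNK and p38, measured 3.99, 3.01, 2.49 and 11.3 FPKM in wild-type replicates 1 to 4 and 1.75, 2.40 and 1.28 FPKM in the mutant libraries, without overlap. Its difference was -0.97 (limma adjusted p = 0.277), and -0.69 against wild-type replicates 1 and 2 (adjusted p = 0.148). Dusp1 differed by -0.54 (limma adjusted p = 0.302) and Dusp6, a phosphatase of ERK, by -0.35 (adjusted p = 0.312). Compared with wild-type replicates 1 and 2 these were -0.66 (limma adjusted p = 0.240) and -0.48 (adjusted p = 0.0915).

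The kinases that MAP kinases activate had a median log2 difference of -0.08 over 10 genes. Mapkapk3, a target of p38, averaged 15.0 ± 2.43 FPKM (SD, n = 4) in wild type and 22.0 ± 1.66 FPKM (SD, n = 3) in mutant libraries, without overlap and without passing (0.54, limma adjusted p = 0.200). Mapkapk2, the p38 target MK2, measured 62.2 ± 16.5 and 43.7 ± 2.79 FPKM (-0.47, adjusted p = 0.299). Rps6ka1, which encodes the ERK target RSK1, differed by 0.54 (limma adjusted p = 0.265), and by 0.27 against wild-type replicates 1 and 2. Both Mapkapk genes kept their sign against wild-type replicates 1 and 2, at 0.42 and -0.17, and neither passed.

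Group I PAK kinases, which phosphorylate the atypical ERKs, were tested in all 3 members. Pak1 measured 10.2, 12.6, 12.5 and 8.94 FPKM in wild-type replicates 1 to 4 and 6.99, 6.34 and 8.66 FPKM in the mutant libraries. The mutant libraries all lay below the wild-type ones, by a narrow margin between mutant replicate 3 and wild-type replicate 4. The log2 difference was -0.53 (SE 0.18, limma adjusted p = 0.214) and -0.57 against wild-type replicates 1 and 2 (adjusted p = 0.124). Pak2, the most abundant of the 3, differed by -0.05 and Pak3 by 0.07. The sign of Pak2 depended on the libraries used, and Pak3 came to -0.00 without mutant replicate 1.

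The lists of activators had medians near that of all genes, although single genes differed by more. Of 7 MAP2K genes 0 had an unadjusted p under 0.05. Map2k7, an activator of JNK, had the smallest p (difference 0.47, limma adjusted p = 0.314, and 0.11 against wild-type replicates 1 and 2). Map2k6 (-0.20) and Map2k1 (-0.20) followed, with adjusted p of 0.504 and 0.525. Among 16 MAP3K and RAF genes the median was 0.09, and Map3k11 (0.48, adjusted p = 0.230), Map3k1 (0.51, 0.285) and Araf (0.53, 0.290) had the smallest p. They were 0.30, 0.42 and 0.15 against wild-type replicates 1 and 2, and none passed. Of the 16 differences 12 were positive, with a median of 0.03 against wild-type replicates 1 and 2. Groups did not overlap in 1 of the 7 MAP2K genes (Map2k7) and 2 of the 16 (Map3k11 and Araf), as against 22.5% of all genes. For Araf, wild-type replicates 1 to 4 gave 30.1, 32.2, 17.6 and 18.4 FPKM, and mutant libraries 32.6 to 36.0 FPKM. Of the 12 RAS and adaptor genes, with a median of 0.00, Ptpn11 differed by -0.47 (limma adjusted p = 0.353) and Gab2 by -0.21 (adjusted p = 0.494). The values against wild-type replicates 1 and 2 were -0.16 and -0.03.

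Of the 6 other MAP kinase genes, 4 were tested, and Mapk10 and Mapk15 had means below 1 FPKM. Mapk11 (p38 beta) differed by 0.48 (limma adjusted p = 0.355) and Mapk12 (p38 gamma) by 0.51 (adjusted p = 0.360). Against wild-type replicates 1 and 2 these were 0.20 and 0.07. The 11 scaffold genes had a median of -0.07. Mapk8ip3, a JNK scaffold also known as JIP3, was split within wild type, where replicates 1 to 4 gave 18.5, 15.9, 1.55 and 1.98 FPKM, and ran from 15.9 to 17.6 FPKM in mutant libraries. Its difference of 1.31 (limma adjusted p = 0.355) turned to -0.05 without wild-type replicates 3 and 4. Iqgap1, which binds ERK and its activators, differed by 0.36 (adjusted p = 0.286) and Tab1, a partner of MAP3K7, by 0.56 (adjusted p = 0.335). Without wild-type replicates 3 and 4 the difference of Iqgap1 was 0.40 and that of Tab1 0.06. Tab1, too, was lower in wild-type replicates 3 and 4, at 5.77 and 5.08 FPKM, than in the other 5 libraries, at 11.2 to 12.5 FPKM.

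Transcription factors that MAP kinases act on or induce had a median of -0.11 over 15 genes tested, and of 0.13 against wild-type replicates 1 and 2, so the sign of the median depended on the libraries used. Fos, an immediate early gene, measured 12.4, 8.41, 11.8 and 6.96 FPKM in wild-type replicates 1 to 4 and 5.90, 5.22 and 5.24 FPKM in the mutant libraries. Its mutant libraries all lay below the wild-type ones, and the difference of -0.72 (SE 0.21) did not pass (limma adjusted p = 0.180), nor did -0.80 against wild-type replicates 1 and 2 (adjusted p = 0.0734). Junb, a partner of FOS, differed by 0.37 (adjusted p = 0.266) in the other direction, and Elk1, an ETS factor phosphorylated by ERK, by -0.35 (adjusted p = 0.301). In neither gene did the groups overlap, and against wild-type replicates 1 and 2 the differences were 0.28 and -0.20.

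**Figure D4:**
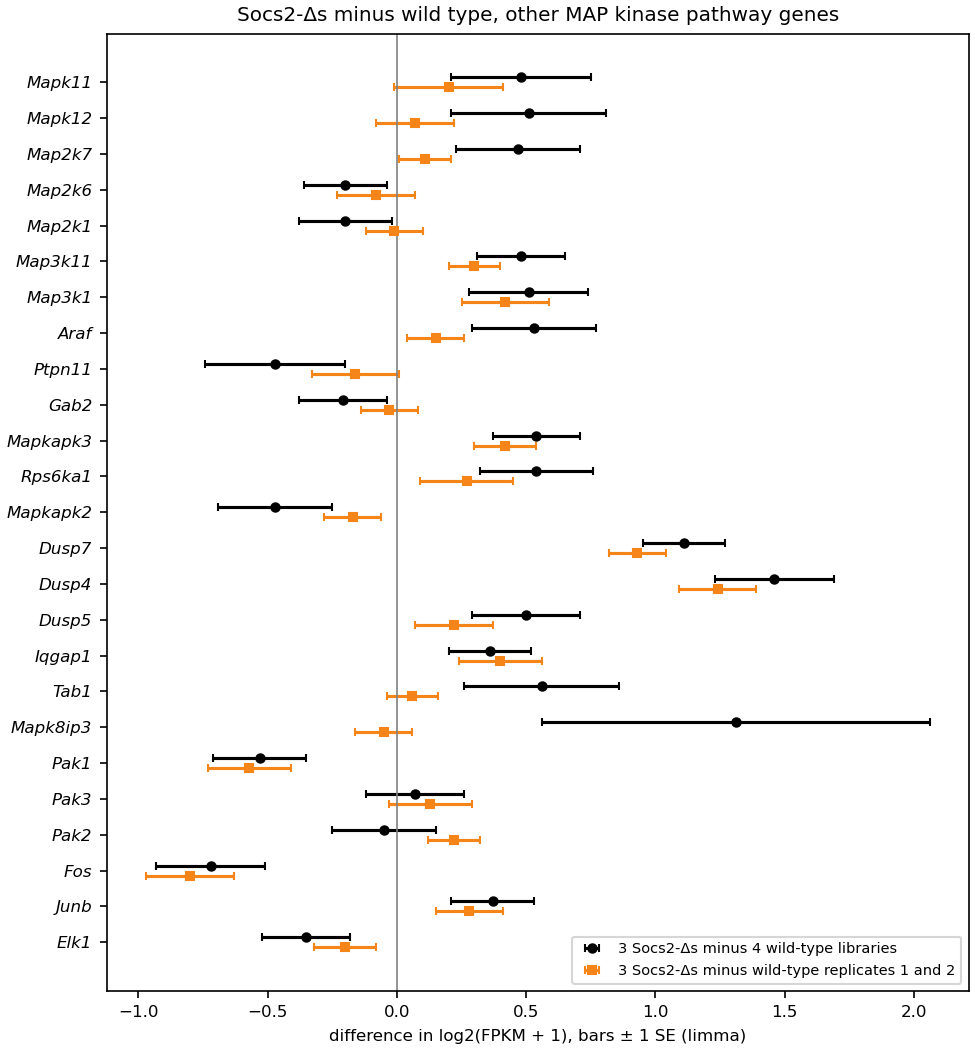
Difference in log2(FPKM + 1) (horizontal axis), Socs2-Δs minus wild type, with bars of ± 1 SE from limma, for up to 3 genes of smallest p in each of 9 pathway lists; circles use 4 wild-type libraries and squares wild-type replicates 1 and 2. Dusp4 (1.46 and 1.24) and Dusp7 (1.11 and 0.93) stay to the right with both sets, and Mapk8ip3 moves from 1.31 to -0.05.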

How the data were processed

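The authors deposited 1 table of FPKM, with a gene symbol, an Entrez ID and a column per library, for the 7 RNA samples. The other 9 samples (ChIP-seq and DNase-seq) were not analysed here. CASAVA, STAR, Bowtie2 and DESeq2, and the build mm9, appear in the submitters' processing notes without roles or versions. With annotation, counting and any use of strand not given in the sources used here, genes overlapping on opposite strands cannot be told apart.

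Whole reads were recovered from the steps between FPKM values: each gene's 7 values, corrected for library depth, were fitted as multiples of a single step within 0.02 of a read. A step was found for 21044 of 21044 rows with any value above 0, though a whole-number multiplier shared by all libraries cannot be seen. The reads per library times the relative worth of 1 read ran from 0.851 to 1.17, so FPKM was not scaled to these totals alone.

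Differences in log2(FPKM + 1) were fitted with limma 3.58.1 (R 4.3.3; trended variance) for the 13392 genes averaging 1 FPKM or more, with Benjamini-Hochberg adjustment over all of them and a threshold of 0.05. The fit was tested on simulated data. Differences are mutant minus wild type. All 9 members were named, and in each pathway list the genes past the threshold, otherwise the 3 of smallest p; values of some of these are not reported here. Likeness took the 5 genes of highest r, without predicted genes, clones and receptor segments. The members and lists were chosen with earlier results of these data known. Of the pathway symbols, Hras1 and Map3k20 are alternative names of genes found as Hras and Zak; of the marker symbols, Adgre1 was found as Emr1, and Mucl1 was not found. Alternatives were another pseudocount, median-of-ratios scaling, quantile normalization, no filter, a replicate block, and leaving out libraries.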

Additional observations from a re-analysis of the deposited data

Results flagged for a closer look

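Of 59 quantities examined in the 4 wild-type libraries, 5 had 1 library far from the other 3, by the gap to the nearest library as a part of the whole range (Dixon's test, 95% critical value). Chance flags about 1 in 20 groups, and several of these quantities share genes. The excess of Mapk6 over Mapk4 was 63.2 times in wild-type replicate 4 and 10.2 to 15.9 in the others. Mapk6 per 1000 FPKM of pan-luminal markers was 23.6 in wild-type replicate 4 and 13.2 to 14.4 in the others. In wild-type replicate 4 the pan-luminal sum was the lowest, at 742, and Mapk6 measured 17.5 FPKM, within the range of the others. In wild-type replicate 4 the summed FPKM of adipocyte markers was 18587 (8097 to 8952 in the others), that of lymphocyte markers 175 (2.63 to 5.77) and that of liver markers 1937 (8.66 to 201).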

How the results depend on the processing

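All genes called higher numbered 6 with 7 libraries, 1 with a pseudocount of 0.1 FPKM, 25 with quantile normalization, 1 without the filter, 189 without wild-type replicates 3 and 4, and 0 with a term for them, which was added after seeing the data. Genes called lower numbered 0, then 3 with quantile normalization and 95 without wild-type replicates 3 and 4. Leaving out 1 library at a time gave 0 to 31 higher and 0 to 1 lower genes. Of the 9 members 0 were called with 7 libraries, and 1, Mapk4, with quantile normalization and without wild-type replicates 3 and 4. With 1 library left out the count was 0 to 1, and Mapk4 was called without wild-type replicate 4, where 31 genes were called higher. Since Mapk4 was chosen on this comparison, these calls only place it among the genes called and support nothing further. Of the pathway genes 0 were called with 7 libraries, 1 (Dusp7) with quantile normalization and 2 without wild-type replicates 3 and 4. The log2 ratio of Mapk4 to Mapk6 was 2.22 higher in mutant libraries, and 3.02 with a pseudocount of 0.1 FPKM.

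The difference of Mapk4 ran from 1.83 to 2.85 over 14 alternatives. That of Mapk6 stayed between -0.23 and -0.06 and that of Mapk8 between 0.11 and 0.23, and the other 6 changed sign under at least 1 alternative. Without wild-type replicates 3 and 4, and with a term for them, the sign turned for Mapk8ip3 (-0.05) and Pak2 (0.22). Pak2 also turned with the replicate block (0.05) and without wild-type replicate 3 (0.03) or 4 (0.05). Pak3 came to -0.00 (SE 0.24) without mutant replicate 1, which is no clear change of sign. Leaving out 1 library at a time, Pak2 ran from -0.16 to 0.05 and Pak3 from -0.00 to 0.17. The cause was not tested.

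With the replicate number as a block, 0 genes were called in place of 6, 0 members and 0 pathway genes were called, and the ratio of Mapk4 to Mapk6 was 2.02. Deviations of same-numbered libraries correlated by 0.35, -0.10 and 0.28 for replicates 1 to 3. Wild-type replicates 1 and 3 each correlated best with the mutant library of their own number. Wild-type replicate 2 correlated best with mutant replicate 3 (0.12). The highest value between other numbers was that of wild-type replicate 4 with mutant replicate 2 (0.34). Whether a shared number stands for a pairing was not tested. The value of Mapk4 in wild-type replicate 4 rests on 26 reads, in a library of 21.8 M reads, a depth like that of the others.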
